A study of Mus musculus with 6 samples.

Results

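A set of 9 genes that mark fibroblasts was followed through the RNA-seq data, namely Pdgfra, Dpt, Clec3b, Gsn, Has1, Medag, Ccdc80, Cilp and Pi16. They were taken by symbol, collagens and proteases were left aside, and they are 9 of the 41388 genes counted in each sample. The study compared tumor-initiating cells (TICs) with the other cells of the same mammary tumors. Tumors came from female mice of the strain FVB/N-TgN(MMTVPyVT)634Mul/J, in which the mouse mammary tumor virus promoter drives the polyoma middle T oncogene in the mammary epithelium. The methods of the study give 12 or 14 weeks as the age at harvest. Its results state that the experiments following a comparison of these ages used CD24+CD90+ cells of mice aged 12 weeks. TICs were sorted as CD24+CD90+CD45- cells, and the comparison cells were the CD45- cells outside the CD24+CD90+ gate, called non-CD24+CD90+ tumor cells here, while the series' own text names them CD24-CD90-. Each group had 3 samples, and 4 cell sorts were pooled for each of them. The study names 12 mice in total, and whether both gates were filled from the same mice is not given in the sources used here. Neither the labels nor the methods name a treatment for these mice. Both groups carried the transgene, and no lineage marker beyond CD24, CD90 and CD45 is named for the sort.

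Fibroblasts are the mesenchymal cells that build and remodel connective tissue, and in the mammary gland they surround the ducts and fill the stroma of tumors. They respond to platelet-derived growth factors (PDGF) through the receptor Pdgfra, make hyaluronan with enzymes such as Has1, and secrete proteins that sit between or on collagen fibrils, among them Dpt, Cilp and Ccdc80. Pi16 is known from fibroblasts in the outer sheath of blood vessels. CD90, the surface protein that defined the TIC gate, is the product of Thy1 and is itself carried by many fibroblasts.

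Depth was similar in all samples, with 6781239 to 8450038 counts in the non-CD24+CD90+ samples and 8114933 to 9100552 in the TIC samples. Levels are given as CPM (counts scaled to a common library total) after TMM scaling, and 3 counts correspond to 0.33 to 0.44 CPM. The cells are labelled breast cancer cells, and the luminal epithelial markers were present in both groups, with 12 of 12 tested and summed levels of 6452 to 6824 CPM in the non-CD24+CD90+ samples and 4259 to 5045 CPM in the TIC samples. Of the 10 leukocyte genes listed, Cd3e, Adgre1 and Fcer1g had 0 counts in all 6 samples. The whole list summed to 76.8 to 147 CPM in the non-CD24+CD90+ samples and to 112 to 232 CPM in the TIC samples, with Lyz2 higher in TICs, as given below. Of the genes of the sorting markers, Cd24a gave a log2 fold change of -0.34 (SE 0.30, adjusted p = 0.985) and Thy1 one of 1.25 (SE 0.50, adjusted p = 0.350).

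All 9 fibroblast genes had a higher mean level in TICs than in non-CD24+CD90+ tumor cells, and 4 of them passed the test, Cilp, Ccdc80, Dpt and Pi16. A gene is called here when its adjusted p from edgeR's exactTest with Benjamini-Hochberg adjustment over all 12192 genes tested is under 0.1, the threshold of the study. Of all genes tested, 1.36% were called higher in TICs and 0.189% lower. The fold changes of the 9 genes ran from 1.47-fold for Gsn to 4.64-fold for Cilp, with a median log2 fold change of 1.18 against -0.01 over all genes tested. For 7 of the 9, every TIC sample lay above every non-CD24+CD90+ sample, which was so for 7.69% of all genes tested. Clec3b and Gsn were the exceptions. The quasi-likelihood test of edgeR called 3 of the 9 (Cilp, Ccdc80 and Dpt) against 0.402% of all genes called higher, and DESeq2 called the same 4 as the exactTest against 1.95%. The 4 called genes also stand in the study's own list of differentially expressed genes, which was drawn from these samples, so their direction is not independent evidence. The number called fell to 2 without non-CD24+CD90+ replicate 3 and rose to 5 without TIC replicate 3. In sorted pools, a larger share of fibroblasts and more RNA of these genes per cell cannot be told apart.

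**Figure D1:**
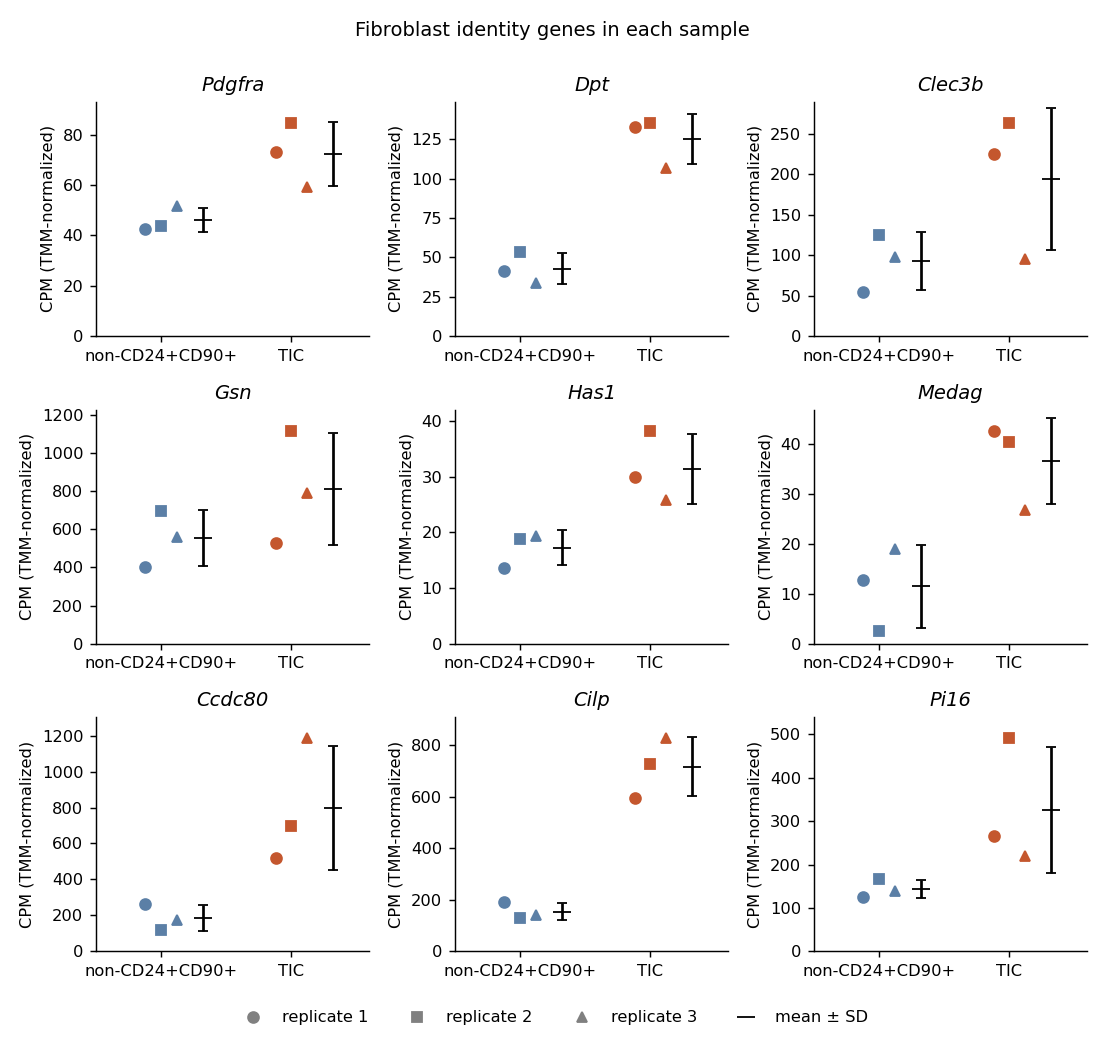
TMM-normalized CPM of each of the 9 fibroblast genes (linear vertical axis from 0) in the 3 non-CD24+CD90+ samples (blue) and the 3 TIC samples (orange), with the marker shape giving the replicate and the bar the mean ± SD. The TIC samples lie above all non-CD24+CD90+ samples for 7 genes, while the groups overlap for Clec3b and Gsn.

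Among the secreted matrix proteins, Cilp (cartilage intermediate layer protein, ENSMUSG00000042254, chromosome 9, 65265180 to 65280605 on the plus strand of GRCm38) had the largest difference of the 9. It was at 193, 131 and 140 CPM in non-CD24+CD90+ replicates 1 to 3 and at 597, 729 and 827 CPM in TIC replicates 1 to 3. No samples of the groups overlapped, and the lowest TIC sample stood far above the highest of the others. The means were 717 ± 115 CPM (SD, n = 3) and 155 ± 34 CPM, a log2 fold change of 2.22 (SE 0.29) with an adjusted p of 4.3e-09. Cilp is an extracellular glycoprotein known from cartilage and fibrous tissue, and within TICs its level was also among the steadiest of the 9, with 1.38-fold between the highest and the lowest TIC sample.

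Ccdc80 (ENSMUSG00000022665, chromosome 16, 45093402 to 45128077, plus strand), a secreted protein that binds matrix, came next. Its levels were 264, 121 and 172 CPM in the non-CD24+CD90+ samples and 517, 698 and 1184 CPM in the TIC samples. All TIC samples were higher, but they spread over 2.29-fold, and TIC replicate 3 stood above both others. The means of 800 ± 345 CPM (SD, n = 3) and 186 ± 73 CPM gave a log2 fold change of 2.11 (SE 0.37, adjusted p = 8.8e-05). Without TIC replicate 3 the log2 fold change was 1.73, still called with an adjusted p of 5.5e-04.

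Dpt (dermatopontin, ENSMUSG00000026574, chromosome 1, 164796644 to 164824266, plus strand) binds decorin and collagen in the dermis and other connective tissues. It was at 41.4 CPM in non-CD24+CD90+ replicate 1, 53.2 CPM in replicate 2 and 33.8 CPM in replicate 3, and at 133, 135 and 107 CPM in the TIC samples. The groups did not overlap, and the TIC samples lay closer to each other than for any other of the 9 genes, within 1.27-fold. With means of 125 ± 16 CPM (SD, n = 3) and 42.8 ± 9.8 CPM, the log2 fold change was 1.54 (SE 0.36, adjusted p = 0.00765). The call was lost without non-CD24+CD90+ replicate 3, where the log2 fold change was 1.40 with an adjusted p of 0.122.

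Pi16 (peptidase inhibitor 16, ENSMUSG00000024011, chromosome 17, 29317680 to 29330593, plus strand) belongs to the CAP family of secreted proteins and marks fibroblasts of the adventitia. Its levels were 126, 166 and 140 CPM in the non-CD24+CD90+ samples and 267, 491 and 220 CPM in the TIC samples. The groups did not overlap, with TIC replicate 2 well above the other two. The means were 326 ± 145 CPM (SD, n = 3) and 144 ± 21 CPM, and the log2 fold change of 1.18 (SE 0.34) passed the threshold narrowly, at an adjusted p of 0.0692. It did not pass without TIC replicate 2 (log2 fold change 0.76, adjusted p = 0.508), nor without non-CD24+CD90+ replicate 1, 2 or 3 (adjusted p = 0.385, 0.218 and 0.324). Under edgeR's quasi-likelihood test the adjusted p was 0.209. Exons of AC162182.1 on the opposite strand overlap those of Pi16, and reads from them cannot be told apart.

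The promoters of 3 of the called genes are shown, all 3 higher in TICs though not highest in the same sample. Each window runs from 250 bases before to 50 bases after the start site given by RefSeq on GRCm38.p6. It is printed 5′ to 3′ on the plus strand. Capitals mark matches, on either strand, to the motifs TATAAA (the TATA box), CCAAT (the CCAAT-factor site), GGGCGG (the GC box), TGAGTCA or its reverse complement TGACTCA (an AP-1 site), GGAATG (a TEAD site), CAGGTG (an E-box bound by ZEB factors) and the CArG box. The windows are chr1:164796413-164796712 for Dpt, chr9:65264930-65265229 for Cilp and chr17:29318632-29318931 for Pi16.
Dpt: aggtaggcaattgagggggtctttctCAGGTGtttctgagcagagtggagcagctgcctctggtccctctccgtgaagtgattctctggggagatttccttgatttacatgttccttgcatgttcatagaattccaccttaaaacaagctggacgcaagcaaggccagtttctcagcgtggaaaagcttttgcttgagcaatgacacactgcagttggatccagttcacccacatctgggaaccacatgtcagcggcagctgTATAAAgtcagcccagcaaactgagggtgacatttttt
Cilp: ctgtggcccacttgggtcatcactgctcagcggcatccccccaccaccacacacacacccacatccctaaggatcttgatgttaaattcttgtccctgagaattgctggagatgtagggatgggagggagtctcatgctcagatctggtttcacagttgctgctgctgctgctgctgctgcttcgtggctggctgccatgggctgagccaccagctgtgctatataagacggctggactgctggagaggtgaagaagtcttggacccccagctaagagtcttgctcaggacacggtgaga
Pi16: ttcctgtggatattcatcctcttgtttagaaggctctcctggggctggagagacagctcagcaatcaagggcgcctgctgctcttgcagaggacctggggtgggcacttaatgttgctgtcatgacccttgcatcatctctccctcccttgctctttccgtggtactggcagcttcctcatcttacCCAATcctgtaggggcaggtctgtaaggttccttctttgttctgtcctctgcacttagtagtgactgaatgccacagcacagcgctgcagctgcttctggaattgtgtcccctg
In the Dpt window the capitals mark CAGGTG, starting 224 bases before the start site, and TATAAA, starting at base 13 after it. Pi16 held a CCAAT box 64 bases before the start site, and the Cilp window held no match, so these 3 promoters shared none of the motifs searched. Only the string TATAAA was searched for the TATA box, so other forms of it would be missed. Of all 32851 promoter windows, 20.2% held the ZEB E-box, 13.6% the TATA box and 37.4% a CCAAT box. Windows were given for 7 of the 9 genes, 10 windows in all, and those of Ccdc80 and Clec3b are not analysed here. None of the 10 windows held a match to AP-1, TEAD or the CArG box, which were found in 5.20%, 14.7% and 1.63% of all windows.

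Clec3b (ENSMUSG00000025784, chromosome 9, 123150946 to 123157432, plus strand) encodes tetranectin, a secreted lectin that binds plasminogen. It was at 54.1, 125 and 97.4 CPM in the non-CD24+CD90+ samples and at 225, 263 and 95.0 CPM in the TIC samples. Only TIC replicates 1 and 2 were higher than all others, and TIC replicate 3 fell within the range of the non-CD24+CD90+ samples. The log2 fold change was 1.07 (SE 0.41, 95% interval 0.26 to 1.89, adjusted p = 0.321). Without TIC replicate 3 it was 1.42 and called, with an adjusted p of 0.0252.

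Gsn (gelsolin, ENSMUSG00000026879, chromosome 2, 35256380 to 35307892, plus strand) severs and caps actin filaments, has a secreted plasma form, and is not restricted to fibroblasts. Its levels were 402, 696 and 557 CPM in the non-CD24+CD90+ samples and 528, 1116 and 791 CPM in the TIC samples. TIC replicate 1 lay below non-CD24+CD90+ replicates 2 and 3, so the groups overlapped. The log2 fold change of 0.56 (SE 0.34, 95% interval -0.10 to 1.21, adjusted p = 0.820) was the smallest of the 9.

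Pdgfra (ENSMUSG00000029231, chromosome 5, 75152292 to 75198215, plus strand) is the receptor tyrosine kinase by which fibroblasts and their precursors sense PDGF. It was at 42.6, 43.8 and 51.5 CPM in the non-CD24+CD90+ samples and at 73.2, 84.5 and 59.0 CPM in the TIC samples. Every TIC sample was higher, by a narrow margin for TIC replicate 3. The log2 fold change was 0.65 (SE 0.41, 95% interval -0.14 to 1.45, adjusted p = 0.854), so this difference did not pass the test. Exons of Gm42802 and Gm42803 on the opposite strand overlap those of Pdgfra, and reads from them cannot be told apart, since the strand setting of the counting is not given in the sources used here.

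The other receptor and the ligands of the PDGF pathway gave no call, and 0 of the 6 genes passed the exactTest, the quasi-likelihood test or DESeq2, with 1 at an unadjusted p under 0.05. Of all genes tested 1.36% were called higher by the exactTest, so 0 calls among 6 genes is near that share. Pdgfrb, the receptor of pericytes and fibroblasts, was at 110, 174 and 125 CPM in the non-CD24+CD90+ samples and at 185, 210 and 323 CPM in the TIC samples, with no overlap (log2 fold change 0.81, SE 0.33, adjusted p = 0.363). Of the ligands, Pdgfa differed by less than the spread between samples, with TICs at 156 ± 49 CPM and the other tumor cells at 134 ± 48 CPM (SD, n = 3 each). Pdgfc stood at 23.4 ± 13.0 and 24.5 ± 10.9 CPM. The scarcer ligands Pdgfb and Pdgfd had higher means in TICs and overlapping groups. Pdgfb was at 9.99 ± 5.92 against 3.24 ± 2.05 CPM (log2 fold change 1.62, SE 1.39, adjusted p = 0.996), and Pdgfd at 9.73 ± 4.40 against 1.83 ± 3.04 CPM (log2 fold change 2.4, SE 1.72, adjusted p = 0.983).

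Has1 (ENSMUSG00000003665, chromosome 17, 17843323 to 17855205, minus strand) is a membrane enzyme that extrudes hyaluronan, the large matrix polysaccharide. Its levels were 13.6, 18.8 and 19.3 CPM in the non-CD24+CD90+ samples and 30.0, 38.2 and 25.9 CPM in the TIC samples. All TIC samples were higher, yet the log2 fold change of 0.86 had an SE of 0.64 (95% interval -0.40 to 2.13, adjusted p = 0.952). The sister enzyme Has2 had 14, 0 and 7 counts in the non-CD24+CD90+ samples and 0, 0 and 1 in the TIC samples, and Has3 had 0 counts throughout.

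Of the 14 genes of hyaluronan metabolism 11 were tested, and 0 were called by the exactTest, the quasi-likelihood test or DESeq2, with 2 at an unadjusted p under 0.05. With 1.55% of all genes tested called in either direction by the exactTest, 0 calls among 11 genes is near that share. The genes of the list did not move one way. Tnfaip6, which links hyaluronan to proteins, was higher in every TIC sample, at 48.4 ± 8.2 against 22.6 ± 15.0 CPM (adjusted p = 0.787). The hyaluronan receptor Cd44 was lower in every TIC sample, at 234 ± 35 against 353 ± 19 CPM (SD, n = 3 each, log2 fold change -0.59, adjusted p = 0.564). Tmem2, a cell-surface hyaluronidase, had a log2 fold change of -0.84 (adjusted p = 0.560) and was likewise lower in every TIC sample.

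Medag (ENSMUSG00000029659, chromosome 5, 149411749 to 149431723, plus strand) is named for its role in adipogenesis of mesenteric fat. It was at 12.8, 2.50 and 19.0 CPM in the non-CD24+CD90+ samples and at 42.6, 40.5 and 26.8 CPM in the TIC samples. The groups did not overlap, but non-CD24+CD90+ replicate 2, with only 22 counts, was 7.62-fold under the highest sample of its group. The log2 fold change of 1.68 (SE 0.76, 95% interval 0.18 to 3.17, adjusted p = 0.550) was thus larger than those of Dpt and Pi16 without being called. Without non-CD24+CD90+ replicate 2 it was 1.20, and reads of the overlapping gene Gm20488 on the same strand cannot be told apart from those of Medag.

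**Figure D2:**
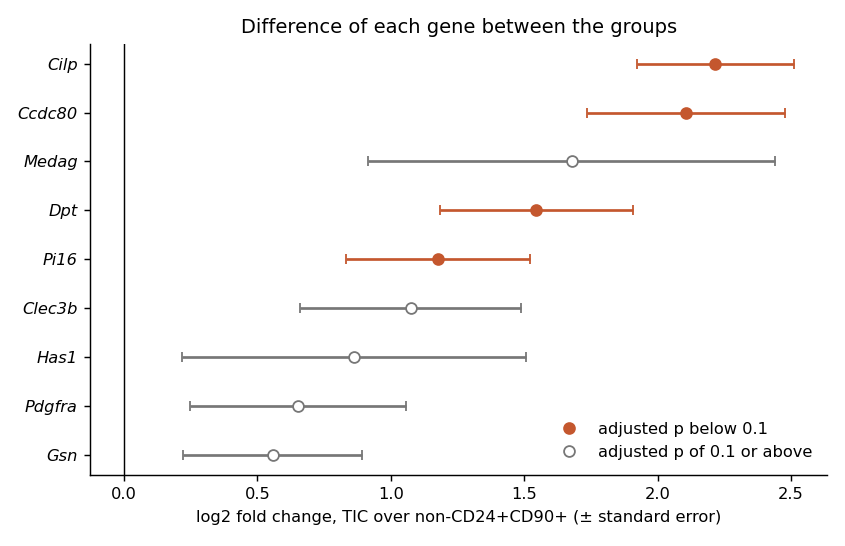
Log2 fold change (TICs over non-CD24+CD90+ tumor cells, horizontal axis) of each of the 9 genes, sorted by size, with a bar of 1 standard error on either side and a filled point where the adjusted p is under 0.1. Cilp, Ccdc80, Dpt and Pi16 are filled, and Medag has the widest bar and is not filled, at 1.68 (SE 0.76).

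Precision differed between the genes. The biological coefficient of variation of the 9 genes ran from 0.25 for Cilp to 0.64 for Medag, against a common value of 0.82 over all genes tested. An exact permutation test of 3 against 3 samples, two-sided, cannot go below p = 0.1, which it gave for each of the 7 genes without overlap, and it gave p = 0.3 for Clec3b and Gsn.

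Summed over the 9 genes, the level was 1150, 1357 and 1230 CPM in the non-CD24+CD90+ samples and 2412, 3596 and 3335 CPM in the TIC samples, a ratio of the means of 2.50. The 3 non-CD24+CD90+ samples were close to each other, and TIC replicate 1 was the lowest of the TICs. The genes did not peak in the same sample. Pdgfra, Dpt, Clec3b, Gsn, Has1 and Pi16 were highest in TIC replicate 2, Ccdc80 and Cilp in TIC replicate 3 and Medag in TIC replicate 1. TIC replicate 3 was at the same time the lowest of the TICs for 6 genes.

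**Figure D3:**
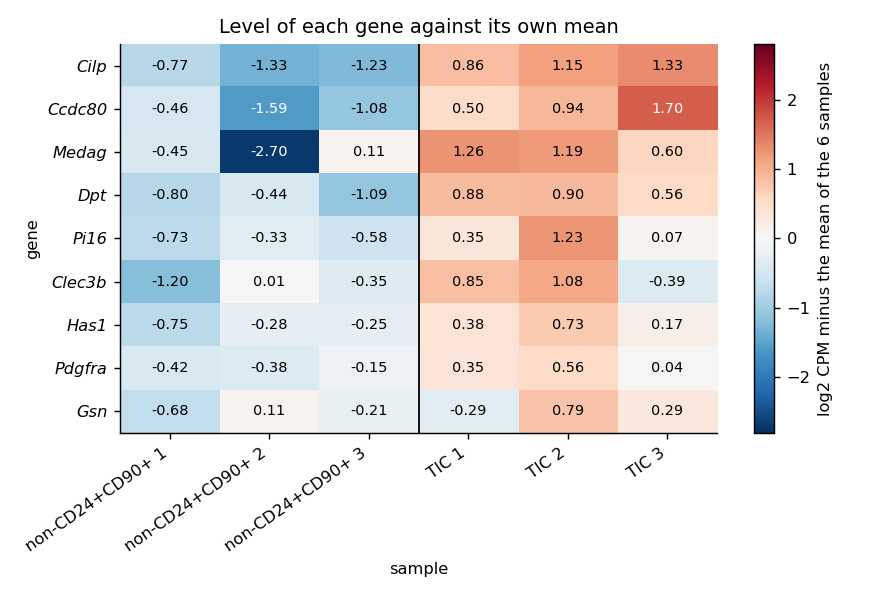
Log2 CPM of each gene in each sample minus that gene's mean over the 6 samples, with the value printed in each cell, red above and blue below the mean. Cilp and Ccdc80 are highest in TIC replicate 3 (1.33 and 1.70), where Clec3b is at -0.39 and Pi16 and Pdgfra are near 0.

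The difference in pattern between pairs of genes was described by ratios and correlations over the 6 samples, which share the group difference itself and are given with no test. Ccdc80 was most like Cilp (Pearson r = 0.97), Pdgfra most like Has1 (0.96), Pi16 and Clec3b also most like Has1 (0.95 and 0.90), and Dpt most like Cilp (0.92). Gsn and Medag were the least alike, with r = 0.19. Clec3b and Ccdc80, both secreted proteins, had r = 0.32, and the ratio of Ccdc80 to Clec3b, chosen after the values were seen, was 2.30, 2.65 and 12.5 in the TIC samples and 4.88, 0.966 and 1.77 in the non-CD24+CD90+ samples. It thus overlapped between the groups. The ratio of Cilp to Gsn, chosen in the same way, did not, at 1.13, 0.653 and 1.04 in the TIC samples and 0.481, 0.188 and 0.251 in the others.

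The 5 genes outside the set whose log2 CPM followed the mean of the 9 genes most closely over the 6 samples were Rnase4 (r = 0.996), Tgfbr2 (0.993), Gm6483 (0.992), Rhou (0.991) and Fam92a (0.990). The mean of the 9 genes holds the group difference, so genes chosen this way were likely to differ between the groups by the choice itself. Rnase4, a secreted ribonuclease, was called, with TICs at 128 ± 23 CPM and the other cells at 58.7 ± 3.1 CPM (SD, n = 3 each) (log2 fold change 1.13, adjusted p = 0.0818). So was Tgfbr2, the type II receptor for TGF-beta, at 462 ± 72 against 223 ± 29 CPM (log2 fold change 1.05, adjusted p = 0.0332). Gm6483 had 10, 20 and 10 counts in the TIC samples and 0 in the others, which the test did not call (adjusted p = 0.459). Rhou and Fam92a were not called either (adjusted p = 0.985 and 0.663).

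Compared per kilobase of exon, the 9 genes fell into levels that were far apart in TICs. Gsn was highest, at 257 ± 93 CPM per kb (SD, n = 3), followed by Clec3b at 196 ± 89, Ccdc80 at 186 ± 80 and Cilp at 169 ± 27 CPM per kb. The ranges of these neighbours overlapped, and their order is therefore not resolved. Dpt came next at 72.5 ± 9.2 CPM per kb, below every TIC value of Cilp, and overlapped with Pi16 at 51.2 ± 22.7. Medag (9.26 ± 2.17), Pdgfra (7.21 ± 1.28) and Has1 (6.94 ± 1.39 CPM per kb) formed a low group that lay below every TIC value of Pi16 and did not separate among themselves. In non-CD24+CD90+ tumor cells the means of the first 6 kept their order, from Gsn at 175 to Pi16 at 22.6 CPM per kb, and Medag was last, after Pdgfra and Has1. Ranges of neighbours overlapped there too, so this order is not resolved throughout. Ccdc80 ran from 28.2 to 61.6 and Cilp from 30.7 to 45.4 CPM per kb, and Dpt from 19.6 to 30.9 and Pi16 from 19.8 to 26.2.

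The closest relatives of the 9 genes by family were counted as well. Of 19 relatives 9 were tested and 0 were called by the exactTest, the quasi-likelihood test or DESeq2, with 2 at an unadjusted p under 0.05. Over all genes tested 1.36% were called higher, so 0 calls among 9 genes is near that share. Their median log2 fold change was 0.49. Every TIC sample was higher for 3 of the 9 (Pdgfrb, Srpx2 and Glipr2), against 7.69% of all genes tested. Srpx2, a sushi-repeat relative of Ccdc80, and Glipr2, a CAP-domain relative of Pi16, were higher in every TIC sample, with 34.9 ± 26.2 against 4.54 ± 4.41 CPM (adjusted p = 0.294) and 14.8 ± 7.8 against 2.50 ± 2.97 CPM (adjusted p = 0.750). The gelsolin relatives Capg, Svil and Flii had log2 fold changes of 0.49, -0.30 and 0.02, with adjusted p-values of 0.933, 1 and 1. Of the other tested relatives, Kit, Csf1r and Srpx had log2 fold changes of 0.31, -1.68 and 1.93, each with an SE of 0.94 or more and an adjusted p of 1. Has3, Clec3a, Scin and Vil1 had 0 counts in all samples.

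Other fibroblast genes were counted from a list of 40 that left out the 9, the collagens and the proteases. Of 37 tested, 21 were called higher in TICs and 0 lower, and 26 had every TIC sample above every other sample. Over all genes tested, 1.36% were called higher and 7.69% had every TIC sample above. The median log2 fold change of the list was 1.38. The list was chosen with earlier results of these data known, so its counts are not independent evidence. Under the quasi-likelihood test 8 were called, and the count fell to 10 without non-CD24+CD90+ replicate 2 or 3 and to 13 without TIC replicate 2. Among proteins that decorate collagen fibrils, Dcn (1.48), Fmod (2.88) and Ogn (1.55) rose, each value being a log2 fold change, while Lum had 1.43 with an adjusted p of 0.323. The elastic-fiber and matrix glycoproteins Fbln1 (1.69), Mfap4 (1.38), Mfap5 (1.74), Efemp1 (1.58), Tnxb (1.30) and Smoc2 (1.26) rose as well. So did Pcolce (1.34), which speeds procollagen processing, and the secreted factors Fstl1 (1.54), Serpinf1 (1.28), Igf1 (1.18), Sema3c (1.13) and Sfrp4 (1.99).

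Fstl1 had the highest CPM of these, where TICs had 1559.8 ± 154.9 CPM and the comparison cells 535 ± 111 CPM (SD, n = 3 each, adjusted p = 9.4e-05). Per kilobase of exon Serpinf1 was higher, with a TIC mean of 458 against 317 CPM per kb for Fstl1. Surface and intracellular genes of the list were also called, namely Ly6a (2.44), Ly6c1 (2.84), Cd34 (1.39), Cd248 (2.21), Cygb (1.21) and Lsp1 (1.52). Sfrp1, a secreted Wnt inhibitor, went the other way, at 43.2 ± 15.3 CPM in TICs against 98.6 ± 8.6 CPM, lower in every TIC sample but not called (log2 fold change -1.19, adjusted p = 0.162). C3, Scara5 and Ackr3 were not called either, with log2 fold changes of 0.22, 0.32 and 0.44. Prrx1 (0.86, adjusted p = 0.352) and Twist2 (1.43, adjusted p = 0.999) were also among the 16 tested genes not called. Tcf21 and Plac9b had 0 counts in all samples, and Pdpn had 2 counts in non-CD24+CD90+ replicate 2 alone.

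Genes known from Pi16-positive adventitial fibroblasts were called higher in 9 of 13 cases, against 1.36% of all genes tested. Their median log2 fold change was 1.39, and 8 of the 9 called also stand in the list above. The ninth, Fbn1, the main protein of microfibrils, was at 606 ± 134 against 172 ± 16 CPM (SD, n = 3 each, log2 fold change 1.82, adjusted p = 5.4e-06). The quasi-likelihood test called 3 of the 13, and the count was 5 without any of the non-CD24+CD90+ replicates or without TIC replicate 2. Cd55, Anxa3, Ackr3 and Scara5 were the 4 that were not called.

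Of 14 genes known from activated or cancer-associated fibroblasts 12 were tested. Of these 4 were called, all higher in TICs, against 1.36% of all genes tested. The 4 were the matrix proteins Postn (log2 fold change 1.15) and Tnc (1.69), the membrane protein Lrrc15 (1.44) and the activin subunit Inhba (2.57). Postn was at 612 ± 32 against 276 ± 36 CPM (SD, n = 3 each, adjusted p = 0.00914). Acta2, the smooth muscle actin of myofibroblasts, did not move beyond its spread, at 156 ± 60 against 158 ± 40 CPM (log2 fold change -0.01, SE 0.35, adjusted p = 1), and Grem1 had 0 counts in all samples. The count was 2 under the quasi-likelihood test and without non-CD24+CD90+ replicate 2.

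**Figure D4:**
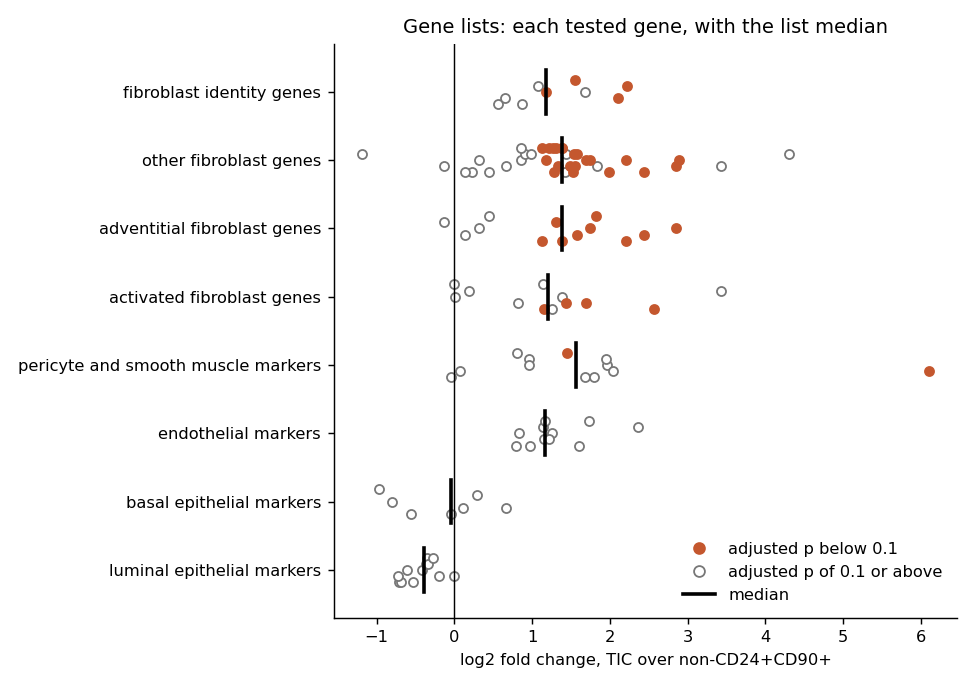
Log2 fold change (TICs over non-CD24+CD90+ tumor cells) of each tested gene by list, filled where called, with the median of each list as a line. The 9 genes and the other fibroblast genes (median 1.38) lie mostly above 0. The pericyte genes (median 1.57) and the endothelial genes (median 1.17) also have medians above 0, while the luminal epithelial genes have a median of -0.39.

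The adipose program to which Medag belongs was represented by 15 genes, of which 7 were tested. Of these 1 was called higher, against 1.36% of all genes tested. That gene was Fabp4, the fatty acid carrier of adipocytes and of capillary endothelium, at 137, 91.3 and 56.5 CPM in the non-CD24+CD90+ samples and at 192, 494 and 1225 CPM in the TIC samples (log2 fold change 2.75, SE 0.51, adjusted p = 4.7e-04). Its TIC values did not overlap the others and were spread widely. Dlk1, Adipoq, Plin1, Lep and Retn had 0 counts in all samples. The remaining tested genes included Cebpb at 765 ± 143 against 740 ± 107 CPM and Lpl at 327 ± 141 against 179 ± 30 CPM (adjusted p = 1 and 0.347).

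Pericyte and endothelial markers also had higher summed levels in every TIC sample than in any other sample. Few or none of them were called singly, and their part in the results above was not tested. Pericyte and smooth muscle markers summed to 386 to 517 CPM in the non-CD24+CD90+ samples and to 813 to 1346 CPM in the TIC samples. Of these, 2 of 12 were called higher, against 1.36% of all genes tested. They were Rgs5 (log2 fold change 1.45, adjusted p = 4.7e-04) and Gja4 (6.11, adjusted p = 0.0549), and Gja4 had only 0, 2 and 4 counts in the non-CD24+CD90+ samples. The pericyte count was 1 in each of the 5 fits that left out a sample other than TIC replicate 1. Endothelial markers summed to 201 to 238 CPM and to 252 to 964 CPM, the highest value being that of TIC replicate 3, the sample in which Ccdc80 and Cilp were highest. None of the 11 endothelial markers was called by the exactTest, the quasi-likelihood test or DESeq2, which is near the 1.36% of all genes called higher by the exactTest. An unadjusted p under 0.05 was found for 6 endothelial markers. Their median log2 fold change was 1.17, against 1.18 for the 9 genes. Every TIC sample was above every other sample for 1 of the 11, against 7.69% of all genes tested. The ratio of the mean sums was 2.54 for the endothelial and 2.48 for the pericyte markers, against 2.50 for the 9 genes. The pattern over the samples differed, however. In TIC replicates 1 to 3 the endothelial sums were 252, 427 and 964 CPM and the pericyte sums 813, 1055 and 1346 CPM. Those of the 9 genes were 2412, 3596 and 3335 CPM.

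Luminal epithelial markers were lower on average in TICs without passing the test. They had a median log2 fold change of -0.39, and 6 of 12 were lower in every TIC sample against 7.55% of all genes tested. By the exactTest or the quasi-likelihood test 0 were called, while 2 had an unadjusted p under 0.05 and DESeq2 called 2. Of all genes tested, 0.189% were called lower by the exactTest. Epcam averaged 1181 ± 70 CPM in the TIC samples against 1494 ± 84 CPM (SD, n = 3 each), and Krt18 1645 ± 153 against 2657 ± 161 CPM. Basal markers had a median log2 fold change of -0.04 and overlapping sums. They summed to 509 to 731 CPM in the TIC samples and to 666 to 1528 CPM in the others. By any of the 3 tests 0 of 7 were called, near the 1.55% of all genes called in either direction by the exactTest, and 1 had an unadjusted p under 0.05. Leukocyte markers summed to 76.8 to 147 CPM in the non-CD24+CD90+ samples and to 112 to 232 CPM in the TIC samples, and Lyz2 was called (log2 fold change 2.68, adjusted p = 0.0125), while Ptprc, which encodes CD45, had 33 counts in non-CD24+CD90+ replicate 1 and 0 in all other samples. Mesothelial genes gave no gene for the test, as 4 of 5 had 0 counts throughout and Msln had 8 counts in TIC replicate 3 alone. The part of these cell types in the differences of the 9 genes was not tested.

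**Figure D5:**
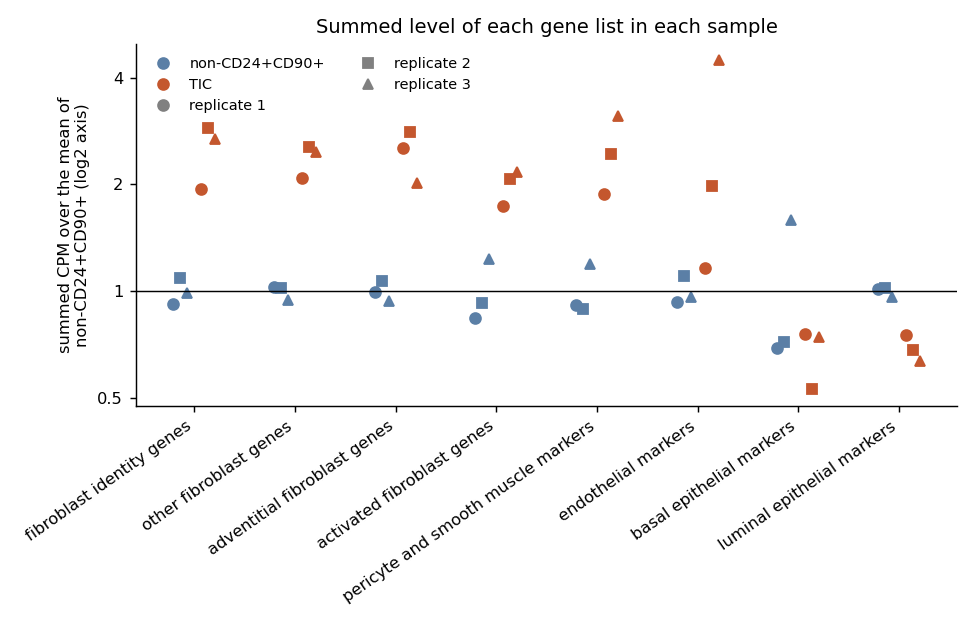
Summed TMM-normalized CPM of each gene list in each of the 6 samples, divided by the mean of the 3 non-CD24+CD90+ samples (log2 axis), with non-CD24+CD90+ in blue, TIC in orange and the marker shape giving the replicate. The 9 genes, the other fibroblast genes (3516 to 3834 against 7750 to 9488 CPM before division) and the pericyte genes are higher in all 3 TIC samples. So are the endothelial genes, narrowly in TIC replicate 1, and the luminal epithelial genes are lower in all 3.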

How the data were processed

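RNA-seq counts of 6 samples were analysed. Per the labels and the study's methods, the authors trimmed reads (Trimmomatic 0.32), aligned them to GRCm38 (STAR 2.4.0), processed them with SAMtools 1.1, counted them per Ensembl gene with HTSeq and deposited raw counts; annotation release and strand setting are not given in the sources used here. The members and lists were chosen with earlier results of these data known. Symbols, positions and exon lengths came from GENCODE M21.

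Genes over 1 CPM in at least 3 samples were kept (12192 of 41388). TMM factors, common and tagwise dispersions and exactTest were computed in edgeR 4.0.16 (R 4.3.3), and p-values were adjusted by Benjamini-Hochberg with a threshold of 0.1, after the study's methods. SEs came from the negative binomial fit. The quasi-likelihood test and DESeq2 1.42.0 were alternatives. The steps were tested on simulated data. Correlations used log2 CPM with a prior count of 2. Named were all 9 genes, tested relatives, called genes of each list or else up to 3 abundant ones, and the 5 most alike genes; Pdgfrb, Tnfaip6, Tmem2, Sfrp1, Lum, C3, Scara5, Ackr3, Acta2, Krt18 and others not called were partly picked after their values were seen. The p-values measure the spread between these pooled samples. The counting floor of 3 counts covers counting error only. Results for 1 of the marker lists are not reported here.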

Additional observations from a re-analysis of the deposited data

How the results depend on the processing

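Cilp and Ccdc80 were called in each of the 9 other settings and each of the 6 fits without a sample, and no log2 fold change of the 9 genes changed sign. Without a sample each, the log2 fold change of Dpt ran from 1.40 to 1.73, that of Clec3b from 0.79 to 1.42 and that of Pi16 from 0.76 to 1.41, and from 2 to 5 of the 9 genes were called. Clec3b was called with trended dispersions (1.07, adjusted p = 0.0699). Pi16 was not called under the quasi-likelihood test (1.18), with library size alone (1.12), without a filter (1.19) or at a threshold of 0.05 (1.18). Of all genes, 189 were called, against 50 under the quasi-likelihood test, 306 under DESeq2, 112 without a filter, 116 at a threshold of 0.05, and 72 to 323 without a sample each. Other fibroblast genes called were 8 under the quasi-likelihood test and 10 to 22 without a sample each. With library size alone, a setting added after seeing the data for this count, 7 of the 9 genes were still higher in every TIC sample. The cause of these changes was not tested. Scaling moved the median log2 fold change of all genes from -0.01 to 0.02 (size factors) or -0.06 (library size). The intervals of Has1 and Medag are wide. No paired analysis was possible because the labels number the samples 1 to 6 across both groups, and the replicate numbers used here only name samples in that order.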
